A study of Homo sapiens with 4 samples.

Results

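The 10 genes described here are feedback inhibitors of the RAS-ERK pathway together with ETV5, a transcription factor gene that responds to it, measured by RNA-seq in parental SUM159 cells and in NOS2KO clones of them. They comprise the phosphatases DUSP1, DUSP4, DUSP5 and DUSP6, the Sprouty genes SPRY1, SPRY2 and SPRY4, the Sprouty-related genes SPRED1 and SPRED2, and ETV5. Members were taken by gene symbol (GENCODE release 29) from the gene identifiers of the count files. The rule used no measured value, but the list was drawn up with earlier results of these data known. All 10 were found among 57500 genes, and all 10 were among the 22511 genes that passed the filter on low counts. SUM159 is an established human triple-negative breast cancer cell line. The series held 4 libraries, 1 of parental SUM159 cells and 1 from each of 3 NOS2KO clones, numbered 1, 5 and 6. NOS2 encodes the inducible nitric oxide synthase, iNOS. The clones came from cells transfected with a pair of nickase plasmids against NOS2, selected with puromycin and picked by iNOS immunoblot and a nitrite and nitrate assay, and the labels describe no such selection or cloning for the parental cells. Loss of NOS2, clonal growth and plasmid selection therefore cannot be told apart here, each clone is 1 library, and the parental arm has no replicate. The labels name no other treatment.

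ERK is the last kinase of the cascade that runs from growth factor receptors through RAS, RAF and MEK, and it switches on the genes of its own inhibitors. The DUSP phosphatases remove phosphate from MAP kinases, Sprouty proteins act between the receptors and RAF, and SPRED proteins bring the RAS GTPase-activating protein neurofibromin to the membrane, where RAS is switched off. ETV5 is a PEA3-type ETS factor whose transcription follows ERK activity, and SUM159 cells are known to carry an activating HRAS mutation.

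DUSP5, ETV5 and SPRY4 transcripts were lower in each of the 3 NOS2KO clones than in parental cells, by 5.17-fold, 3.25-fold and 2.04-fold in the fit, while SPRED1 and SPRED2 were lower by a smaller and nearly equal amount in each clone. SPRY1 lay above the parental library in each clone, and DUSP1 was far above it in clone 1. DUSP4, DUSP6 and SPRY2 stayed closer to the parental level. The 10 genes thus did not share 1 direction. With edgeR 0 of 10 passed the adjustment over all genes, against 0.00444% of all tested genes, which is 1 gene. In the same edgeR fit 3 members, all lower, had an unadjusted p under 0.05, against 6.83% of tested genes lower and 4.67% higher. With DESeq2 2 members passed the adjustment, both lower, against 3.05% of the genes it tested lower and 3.13% higher.

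Read totals on genes ran from 90467395 to 122171287 per library, so counting error was small for all members, whose lowest count was 1136. NOS2 itself had 2 counts in parental cells against 3 (clone 1), 18 (library labelled clone 5) and 1 (clone 6). The transcript was thus at or near the floor of 3 counts in 3 libraries and does not check the genotype, and it was highest in a library labelled as a knockout. Summed CPM (counts per 1000000 after TMM scaling, a correction for library composition) over 6 mesenchymal markers was 4680 in the parental library and 8320 to 10800 in the clones, carried by VIM, FN1 and SPARC. ZEB1, of the same list, was below the parental 83.7 CPM in every clone, at 39.5 to 57.8, and CDH2 lay on both sides. Over 7 epithelial markers it was 563 in the parental library and 836 to 1280 in the clones, nearly all of it KRT8 and KRT18, with CDH1, EPCAM, KRT19 and GRHL2 below 1 CPM in every library. Of 3 receptor genes whose low level defines the tumour type, PGR and ESR1 were below 1 CPM in every library. The 3 summed to 48.5 CPM in the parental library and 55.7 to 107 in the clones. Nearly all of that sum was ERBB2, at 48.3 CPM in the parental library and 55.6 to 106 in the clones. Over the leukocyte markers the sum was 17.6 CPM in the parental library and 53.1 to 110 in the clones, most of it PTPRC in the clones. CD14 and ITGAM went the other way and were below the parental library in every clone, CD14 at 2.29 to 11.3 CPM against 12.8. CD3E had at most 8 counts in any library. The list's median log2 fold change was -1.11, opposite in sign to the change in its sum. Over 4 endothelial markers the summed CPM was 16.4 in the parental library and 11.0 to 15.0 in the clones. PECAM1 was the largest part of that sum in every library, while VWF, CDH5 and KDR were each below 4 CPM in every library. The median log2 fold change of the endothelial list was 3.59, opposite in sign to the change in its sum. The criterion of the study's volcano plot, an unadjusted p under 0.05 with a log2 fold change beyond 1 in size, was there used with a Wald test and is used here with edgeR unless DESeq2's Wald test is named. By it, SPARC and PTPRC were higher in the clones, ESRP1 was lower and the other tested markers did not meet it. With DESeq2's Wald test VIM, KRT8, VWF and CDH5 met it as well, all higher in the clones. The part of these differences in the values of the members was not tested, and in bulk RNA fewer cells of a kind and less RNA per cell cannot be told apart.

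Promoter sequence is shown for the 3 members whose transcripts lay above the parental library in all 3 clones and for which the RefSeq table (GRCh38.p14) holds a window outside the gene's own exons. The most upstream such window is given, and each is the 250 bases before a RefSeq start site, read on the strand of the gene. For DUSP1 in the library labelled clone 5 and SPRY2 in clone 1 the difference from the parental library was within counting error. The windows were searched on both strands for a cAMP response element (CRE, TGACGTCA), an ETS core (CCGGAA), an AP-1 site (TGANTCA) and a CArG box. Capitals mark a match, and none of the windows shown held matches that overlap.
DUSP1, chr5:172771196-172771445, minus strand: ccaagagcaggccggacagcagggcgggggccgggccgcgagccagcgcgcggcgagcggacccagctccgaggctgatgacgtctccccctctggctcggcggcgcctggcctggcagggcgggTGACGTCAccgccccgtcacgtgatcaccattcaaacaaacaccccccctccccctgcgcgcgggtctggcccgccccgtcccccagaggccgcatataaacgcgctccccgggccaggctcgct
SPRY1, chr4:123396545-123396794, plus strand: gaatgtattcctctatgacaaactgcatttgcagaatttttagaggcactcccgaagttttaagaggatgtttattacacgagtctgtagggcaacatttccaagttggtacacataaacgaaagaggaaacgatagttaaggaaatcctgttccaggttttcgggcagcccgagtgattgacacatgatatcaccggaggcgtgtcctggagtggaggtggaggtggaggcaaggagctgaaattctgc
SPRY2, chr13:80341127-80341376, minus strand: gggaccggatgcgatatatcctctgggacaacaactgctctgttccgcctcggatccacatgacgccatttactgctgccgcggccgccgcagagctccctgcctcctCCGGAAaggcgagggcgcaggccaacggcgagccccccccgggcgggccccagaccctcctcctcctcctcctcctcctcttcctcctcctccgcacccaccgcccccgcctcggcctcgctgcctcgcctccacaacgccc
The DUSP1 window held a CRE at 125 to 118 bases before the start, as did 1.65% of 35116 windows of this length. The SPRY2 window held an ETS core at 142 to 137 bases before the start, and 14.5% of all windows hold one. No motif of the 4 was found in the SPRY1 window shown. Over the 11 windows of 7 members, a CRE was found in 1 and an ETS core in 2, the second being another SPRY1 window, 67 to 62 bases before a start site further downstream. An AP-1 site, present in 6.57% of all windows, and a CArG box, present in 1.16%, were found in 0. These matches describe the letters and are not evidence of binding.

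DUSP5 encodes a nuclear phosphatase selective for ERK (ENSG00000138166, chr10:110497838-110511544, plus strand). Its level was 84.0 CPM in parental cells against 25.7 (clone 1), 10.7 (library labelled clone 5) and 12.4 (clone 6). Every clone was below the parental library, and clone 1 was the least reduced. The clones averaged 16.2 ± 8.21 CPM (SD, n = 3), and the log2 ratio to parental was -1.71 in clone 1 (95% interval -1.77 to -1.65). It was -2.98 for the library labelled clone 5 (-3.07 to -2.89) and -2.76 for clone 6 (-2.85 to -2.67). These intervals are exact Clopper-Pearson intervals of the 2 counts and cover counting error only. The fitted log2 fold change, clones over parental, was -2.37 (SE 0.58, unadjusted p = 0.00761, adjusted p = 0.327, edgeR quasi-likelihood test, Benjamini-Hochberg). DUSP5 met the volcano plot criterion and failed the adjustment over all 22511 genes in edgeR. DESeq2's Wald test gave an adjusted p of 0.0167, and over all alternatives it ran from 0.0167 to 0.739.

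DUSP6 encodes a cytoplasmic phosphatase selective for ERK (ENSG00000139318, chr12:89347232-89353271, minus strand). Its level was 37.4 CPM in parental cells against 21.5 (clone 1), 39.9 (library labelled clone 5) and 26.4 (clone 6). The clones lay on both sides of the parental library, which makes DUSP6 the 1 member of mixed direction. Only the library labelled clone 5 lay above it, at a log2 ratio of 0.09 (0.03 to 0.16). In the fit the log2 fold change was -0.35 (SE 0.44, adjusted p = 0.769, edgeR quasi-likelihood test, Benjamini-Hochberg). In these libraries DUSP5 and DUSP6, both ERK phosphatases, therefore had different profiles, DUSP5 below the parental library by more than 3-fold in every clone and DUSP6 within 2-fold of it in every clone.

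DUSP4 encodes a nuclear phosphatase that acts on ERK and JNK (ENSG00000120875, chr8:29333064-29350668, minus strand). It was at 185 CPM in parental cells against 108 (clone 1), 181 (library labelled clone 5) and 174 (clone 6). Only clone 1 stood apart, with a log2 ratio of -0.77 (-0.81 to -0.74), and the other two clones were close to the parental level. Their small differences of -0.03 and -0.09 turned positive under upper quartile scaling, at 0.11 and 0.04, and the former also with library size alone, at 0.05. Fitted over the clones, the log2 fold change was -0.26 (SE 0.40, adjusted p = 0.818, edgeR quasi-likelihood test, Benjamini-Hochberg).

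DUSP1 encodes an immediate early phosphatase that prefers p38 and JNK (ENSG00000120129, chr5:172768090-172771195, minus strand). Its level was 56.2 CPM in parental cells against 327 (clone 1), 57.7 (library labelled clone 5) and 83.1 (clone 6). Clone 1 was thus far above the others, and the library labelled clone 5 was at the parental level, with a log2 ratio of 0.04 (-0.02 to 0.09). The ratio was 2.54 for clone 1 and 0.56 for clone 6 (0.51 to 0.61). A fitted log2 fold change of 1.47 (SE 1.05, adjusted p = 0.648, edgeR quasi-likelihood test, Benjamini-Hochberg) rested on clone 1, and without that clone it was 0.33. The promoter with the CRE match is that of this gene.

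**Figure D1:**
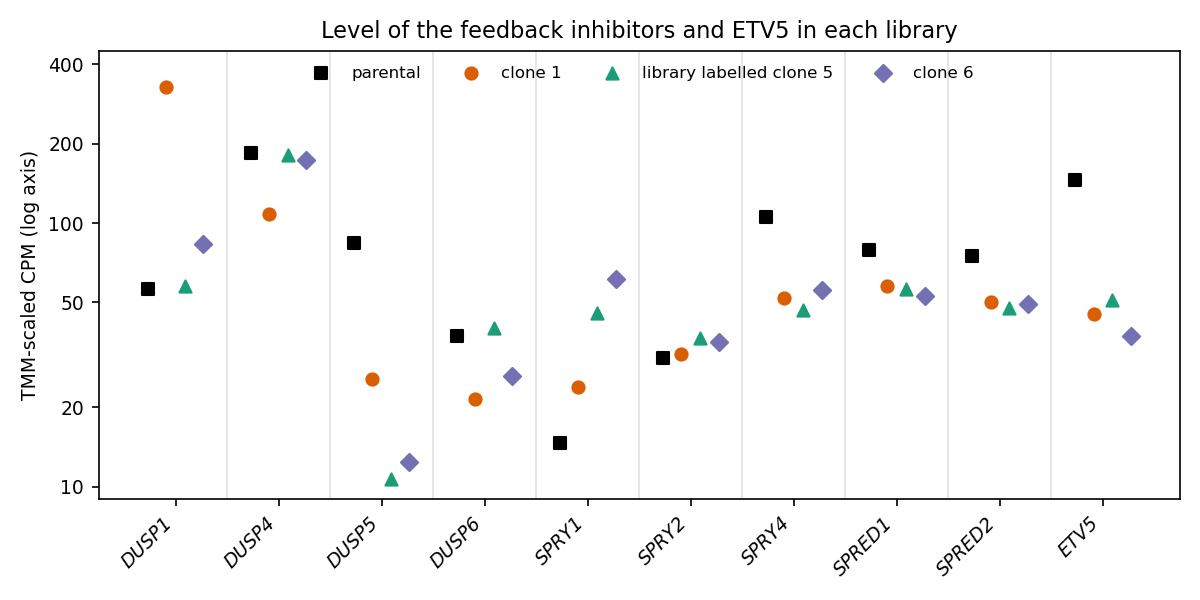
TMM-scaled CPM of the feedback inhibitors and ETV5, on a log axis, in the parental library and the 3 NOS2KO clones, with 1 point per library. DUSP5, ETV5 and SPRY4 have all 3 clones below the parental point, SPRY1 has all 3 above it, and DUSP1 has clone 1 at 327 CPM against 56.2 in the parental library.

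SPRY4, a Sprouty that restrains receptor signalling towards RAS and RAF, is at chr5:142310427-142326455 on the minus strand (ENSG00000187678). Its level was 105 CPM in parental cells against 52.0 (clone 1), 46.7 (library labelled clone 5) and 55.8 (clone 6). The clones averaged 51.5 ± 4.56 CPM (SD, n = 3), and all 3 lay close together below the parental library. Clones over parental, the fitted log2 fold change was -1.03 (SE 0.27, unadjusted p = 0.011, adjusted p = 0.332, edgeR quasi-likelihood test, Benjamini-Hochberg). SPRY4 met the criterion by a small margin, and its log2 fold change was -0.94 without the library labelled clone 5, -0.92 with upper quartile scaling and -0.96 with the stricter filter, which no longer met it.

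SPRY1, at chr4:123396795-123403760 on the plus strand (ENSG00000164056), showed the opposite direction against the parental library. Its level was 14.6 CPM in parental cells against 23.9 (clone 1), 45.5 (library labelled clone 5) and 61.6 (clone 6). All clones were above the parental library, and they differed among themselves, with a log2 ratio of clone 1 to clone 6 of -1.36 (-1.43 to -1.30). Clones averaged 43.7 ± 18.9 CPM (SD, n = 3), and the fitted log2 fold change was 1.58 (SE 0.57, unadjusted p = 0.0557, adjusted p = 0.446, edgeR quasi-likelihood test, Benjamini-Hochberg). SPRY1 did not meet the criterion in edgeR. It met it without clone 1, at a log2 fold change of 1.87, with no filter on low counts and with DESeq2, where the adjusted p was 0.144 (0.128 to 0.764 over all alternatives).

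SPRY2, at chr13:80335976-80340951 on the minus strand (ENSG00000136158), differed little. Its level was 30.7 CPM in parental cells against 32.0 (clone 1), 36.7 (library labelled clone 5) and 35.5 (clone 6). The clones were slightly above the parental library, but clone 1 lay just under it, at a log2 ratio of -0.03 in place of 0.06, when library size alone was used. The fitted log2 fold change was 0.18 (SE 0.27, adjusted p = 0.824, edgeR quasi-likelihood test, Benjamini-Hochberg). The 3 Sprouty genes were thus below, above and near the parental library respectively for SPRY4, SPRY1 and SPRY2.

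SPRED1, at chr15:38252326-38357249 on the plus strand (ENSG00000166068), was at 78.8 CPM in parental cells against 57.6 (clone 1), 56.4 (library labelled clone 5) and 52.7 (clone 6). SPRED2, at chr2:65310851-65432637 on the minus strand (ENSG00000198369), was at 75.0 CPM in parental cells against 50.1 (clone 1), 47.5 (library labelled clone 5) and 49.2 (clone 6). Both genes were below the parental library in every clone and varied little between clones. The clones averaged 55.6 ± 2.58 CPM for SPRED1 and 48.9 ± 1.33 CPM for SPRED2 (SD, n = 3). The fitted log2 fold changes were -0.51 (SE 0.25, unadjusted p = 0.0995) for SPRED1 and -0.62 (SE 0.25, unadjusted p = 0.0546) for SPRED2 in edgeR's quasi-likelihood test, so neither met the criterion. The Benjamini-Hochberg adjusted p of that test was 0.502 and 0.443.

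ETV5, at chr3:186046308-186110318 on the minus strand (ENSG00000244405), is a transcriptional readout of the pathway and no inhibitor. Its level was 145 CPM in parental cells against 45.2 (clone 1), 51.3 (library labelled clone 5) and 37.3 (clone 6). All clones were far below the parental library and close to each other, at 44.6 ± 6.99 CPM (SD, n = 3). The log2 ratio was -1.68 in clone 1 (-1.73 to -1.63), -1.50 for the library labelled clone 5 (-1.54 to -1.45) and -1.96 for clone 6 (-2.01 to -1.90). In the fit the log2 fold change was -1.70 (SE 0.30, unadjusted p = 0.00214, adjusted p = 0.275, edgeR quasi-likelihood test, Benjamini-Hochberg). ETV5 met the criterion, and with DESeq2's Wald test its adjusted p was 0.00255, against a range of 0.00255 to 0.739 over all alternatives. Exons of ETV5 overlap those of DGKG on the same strand, a gene with 233 to 835 counts per library, while ETV5 had 3682 to 13098.

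Counted over the list, 3 of 10 members were lower by the criterion (DUSP5, ETV5 and SPRY4) and 0 were higher, against 5.34% of all tested genes lower and 4.24% higher. By the same criterion with DESeq2's Wald test, these 3 members were lower and 1 (SPRY1) was higher, against 5.08% and 7.07% of tested genes. The members that passed DESeq2's adjustment were DUSP5 and ETV5. The median log2 fold change was -0.43 over the members and 0.10 over all tested genes.

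**Figure D2:**
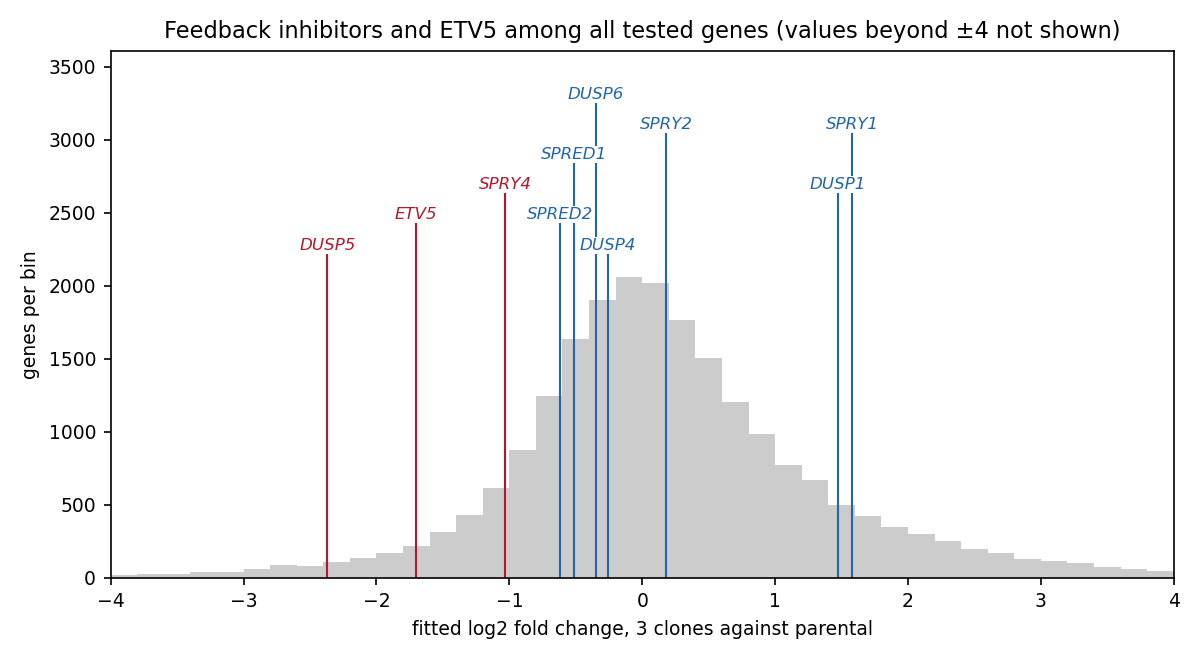
Histogram of the fitted log2 fold change, clones against parental, over the tested genes (vertical axis, genes per bin; 757 genes beyond 4 in size are not shown), with a line for each feedback inhibitor and ETV5. The lines of DUSP5, ETV5 and SPRY4 (red, criterion met) lie at -2.37, -1.70 and -1.03, and those of SPRY1 and DUSP1 lie at 1.58 and 1.47.

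All 3 clones lay below the parental library for 6 members (DUSP4, DUSP5, SPRY4, SPRED1, SPRED2 and ETV5), while 37.3% of the 10709 genes that reached 10 CPM in any library did so. With upper quartile scaling or library size alone the number of members was 5, since DUSP4 left the group. All 3 clones lay above it for 3 members (DUSP1, SPRY1 and SPRY2), against 27.8% of these genes, and library size alone left 2. Some of these directions were within counting error. In the library labelled clone 5 the log2 ratio was -0.03 for DUSP4 (-0.06 to 0.00) and 0.04 for DUSP1 (-0.02 to 0.09). In clone 1 it was 0.06 for SPRY2 (-0.01 to 0.13). Taken clone by clone, clone 1 had 3 members lower by more than 2-fold (background 11.7%) and 1 higher (11.6%). The library labelled clone 5 had 3 lower (background 12.6%) and 1 higher (10.6%). Clone 6 had 2 lower (background 12.3%) and 1 higher (11.1%). DUSP5 and ETV5 were past 2-fold in all clones, SPRY4 in clone 1 and in the library labelled clone 5, and the member higher by more than 2-fold was DUSP1 in clone 1 and SPRY1 in the other two. The 3 clone comparisons share the 1 parental library and are not independent.

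**Figure D3:**
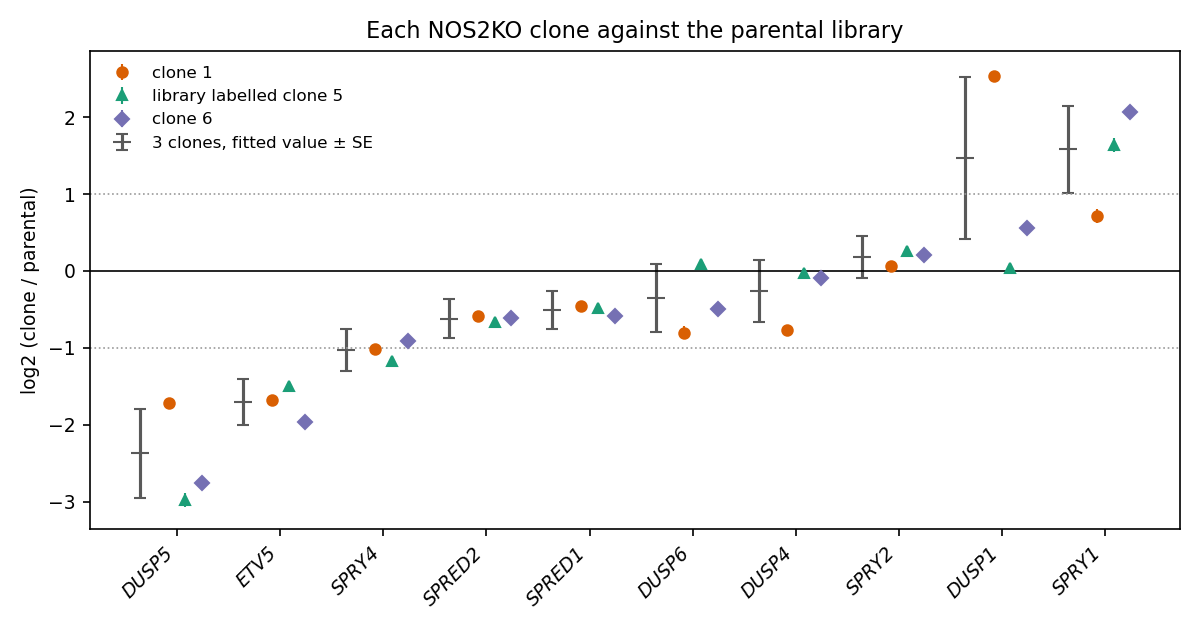
Log2 ratio of each NOS2KO clone to the parental library for the feedback inhibitors and ETV5, with exact 95% intervals that cover counting error only and dotted lines at a 2-fold difference. DUSP5 and ETV5 lie below the lower dotted line in every clone, and DUSP1 in clone 1 is the highest point at 2.54.

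The members also differed in how far the clones spread from each other. The ratio of the highest to the lowest clone was 5.67 for DUSP1, 2.57 for SPRY1 and 2.41 for DUSP5, and 1.85 and 1.67 for DUSP6 and DUSP4. It was 1.37 for ETV5, 1.19 for SPRY4, 1.15 for SPRY2, 1.09 for SPRED1 and 1.06 for SPRED2, while the median gene with at least 10 CPM had 1.5. Of such genes, 4.30% spread more than DUSP1 and 1.46% spread less than SPRED2. All 4 phosphatase genes thus spread more between clones than the median gene, and ETV5, the SPREDs, SPRY2 and SPRY4 spread less.

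To set the genes against each other, CPM was divided by exon length in kilobases, which gives a level per length. In the parental library DUSP5 led with 32.1 CPM per kilobase, followed by DUSP1 (27.9), DUSP4 (25.5), ETV5 (25.0), SPRY4 (17.7), SPRED2 (14.6), SPRY2 (10.1), SPRED1 (9.55), DUSP6 (8.08) and SPRY1 (3.69). In the library labelled clone 5 DUSP5 was the lowest at 4.08 and in clone 6 it was the lowest at 4.75, while in clone 1 it was 9.82. DUSP1 was the highest member per length in every clone, at 162 (clone 1), 28.6 (library labelled clone 5) and 41.2 (clone 6), and DUSP4 was next with 14.9, 25.0 and 24.0. SPRY1, the lowest member in the parental library, reached 15.5 CPM per kilobase in clone 6 and was the third there. No spread is known for the parental order, since that library has no replicate.

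Profiles over the 4 libraries were compared by the Euclidean distance of log2(CPM + 1), centred on each gene's mean, as a description over 4 points. The nearest pair of members was SPRED1 and SPRED2, at 0.141, and the farthest was DUSP5 and SPRY1, at 3.77. SPRY4 and SPRED2 lay at 0.384 and DUSP4 and DUSP6 at 0.392. Around DUSP6, the 3 nearest genes were KIRREL1 (0.0355), MLYCD (0.0884) and GPR107 (0.097). Within 0.3 lay 89 of the 10709 genes that reached 10 CPM in a library, and 0 other members. With so small a share of all genes that near, the 0 is no result about the members. KIRREL1 had 443 CPM in parental cells against 264 (clone 1), 465 (library labelled clone 5) and 318 (clone 6), the same order as DUSP6.

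Among the related genes, ETV4, another PEA3-type factor, was at 82.2 CPM in parental cells against 21.1 (clone 1), 12.3 (library labelled clone 5) and 13.4 (clone 6). Every clone was far below the parental library, as for ETV5. Its fitted log2 fold change was -2.40 (SE 0.41, unadjusted p = 0.00175, adjusted p = 0.275, edgeR quasi-likelihood test, Benjamini-Hochberg). ETV1, the third gene of that type, was at 68.0 CPM in parental cells against 82.7 (clone 1), 76.5 (library labelled clone 5) and 75.6 (clone 6), with a fitted log2 fold change of 0.20. The other 2 genes of the Sprouty and SPRED families did not meet the criterion.

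Of 6 other MAP kinase phosphatase genes, 0 met the criterion, with a median log2 fold change of -0.61. By the criterion 5.34% of all tested genes were lower and 4.24% higher, so 0 of 6 is close to that share. In edgeR 0 of the 6 had an unadjusted p under 0.05, and in DESeq2 0 had an adjusted p under 0.05. DUSP8, which acts on JNK and p38, was at 21.0 CPM in parental cells against 9.57 (clone 1), 9.59 (library labelled clone 5) and 4.03 (clone 6), with a log2 fold change of -1.44 and an unadjusted p of 0.0567 by edgeR's quasi-likelihood test. DUSP8 met the criterion with DESeq2's Wald test, at -1.42 and an unadjusted p of 0.0399. DUSP10, of the same preference, lay on both sides of its parental 15.8 CPM, at 9.70, 23.7 and 31.6 in the same order of clones.

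Of 18 genes of the cascade itself, 2 were lower by the criterion, 0 were higher and 16 did not meet it. Over all tested genes 5.34% were lower by it and 4.24% higher. The median log2 fold change of the 18 genes was -0.28. MAP2K1, which encodes the kinase MEK1 that phosphorylates ERK, was at 141 CPM in parental cells against 79.4 (clone 1), 69.6 (library labelled clone 5) and 60.3 (clone 6) (log2 fold change -1.01, SE 0.29). KSR1, a scaffold that holds RAF, MEK and ERK together, was at 112, 53.0, 44.9 and 54.2 CPM in that order (log2 fold change -1.14, SE 0.27). Their Benjamini-Hochberg adjusted p by the edgeR quasi-likelihood test was 0.345 and 0.327. The call for MAP2K1 was lost in 7 of 11 alternatives, DESeq2's Wald test among them. KSR1 is a neighbour of NOS2, the gene targeted in the clones, 130 kilobases away on chromosome 17, and the part of that position in its level was not tested. Of the RAS GTPase-activating proteins, 0 of 8 tested genes met the criterion (median -0.06), and of 7 other feedback inhibitors 0 did (median -0.06). In lists this small 0 is close to the shares of all tested genes given above. Both lists had 0 genes at an unadjusted p under 0.05 in edgeR and 0 at an adjusted p under 0.05 in DESeq2. With DESeq2's Wald test 1 of the other feedback inhibitors, IL17RD, met the criterion and was higher, against 7.07% of tested genes. It was at 0.808 CPM in parental cells against 6.28 (clone 1), 15.1 (library labelled clone 5) and 0.933 (clone 6).

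Of 12 genes induced by ERK signalling, ETV4 alone met the criterion, 0 were higher by it and 11 did not meet it, with a median log2 fold change of -0.60. Over all tested genes 5.34% were lower by the criterion and 4.24% higher. With DESeq2's Wald test 5.08% were lower by it and 7.07% higher. With DESeq2 1 gene was lower (ETV4) and 1 was higher (FOS) at an adjusted p under 0.05, and by the criterion with its Wald test both FOS and EGR1 were higher (unadjusted p = 0.000738 and 0.0102). FOS, an immediate early AP-1 subunit, was at 36.5 CPM in parental cells against 1090 (clone 1), 102 (library labelled clone 5) and 390 (clone 6). EGR1, an immediate early zinc finger factor, was at 65.0, 1170, 95.3 and 360 CPM in that order. DUSP1, like these, was highest in clone 1 and next in clone 6. In the library labelled clone 5 DUSP1 was at the parental level (log2 ratio 0.04, -0.02 to 0.09), while FOS and EGR1 were above it. The fitted log2 fold changes were 3.86 (SE 1.23, adjusted p = 0.452) for FOS and 3.06 (SE 1.30, adjusted p = 0.522) for EGR1 edgeR quasi-likelihood test, Benjamini-Hochberg. PHLDA1, whose transcription follows ERK activity, was below the parental 340 CPM in every clone, at 82.3, 222 and 201, with a log2 fold change of -1.01 (SE 0.62, adjusted p = 0.554 by the same edgeR test).

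**Figure D4:**
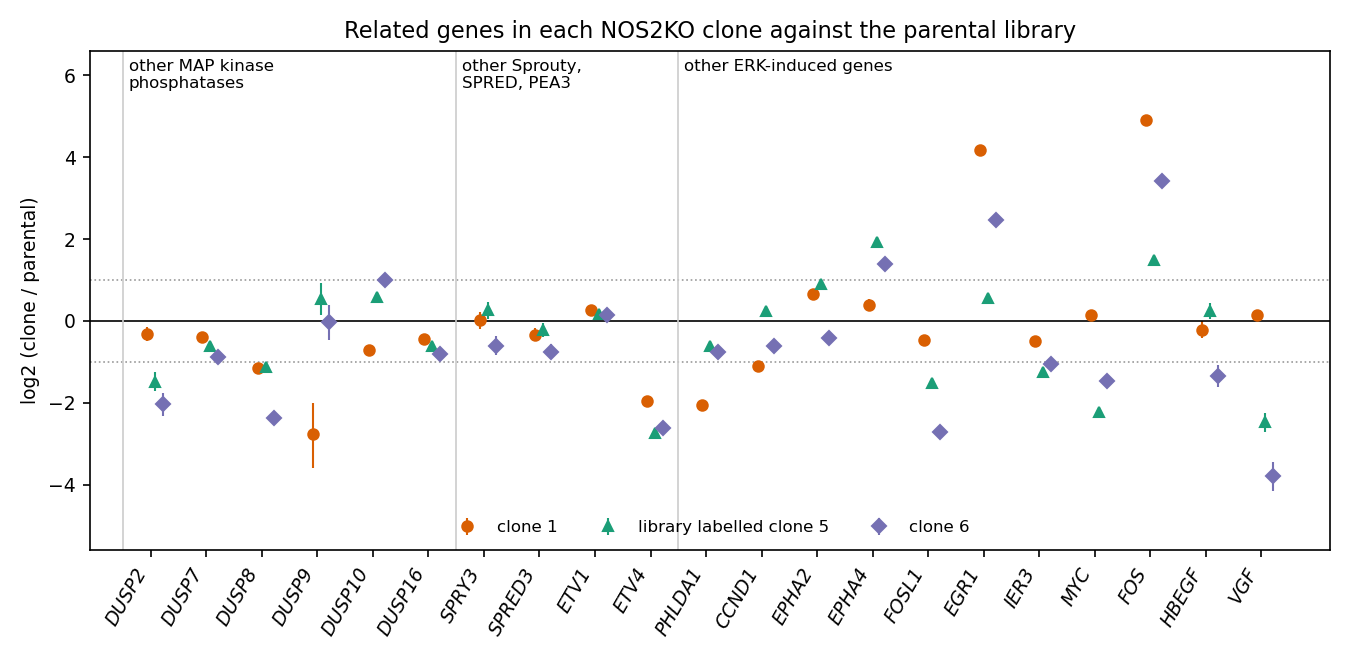
Log2 ratio of each NOS2KO clone to the parental library for related genes, grouped as other MAP kinase phosphatases, other Sprouty, SPRED and PEA3 genes and other ERK-induced genes, with exact 95% intervals for counting error and dotted lines at a 2-fold difference. ETV4 lies below the lower dotted line in every clone, and EGR1 and FOS are highest in clone 1, at 4.17 and 4.91.

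The files do not say whether reads were counted by strand. DUSP6 shares exon positions with the antisense gene AC024909.2, and reads of that stretch cannot be told apart without strand. AC024909.2 had 126 counts in parental cells against 116 (clone 1), 451 (library labelled clone 5) and 234 (clone 6), while DUSP6 had 2466 to 4250 per library. Both genes were highest in the library labelled clone 5, and the part of shared reads in the DUSP6 level was not tested.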

How the data were processed

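Polyadenylated RNA of 4 SUM159 libraries was sequenced. The authors deposited whole-number read counts per gene, 1 file per library, with gene coordinates and exon lengths. The submitters' processing notes name bcl2fastq 2.17, Trimmomatic 0.36, STAR 2.5.2b, featureCounts, Subread 1.5.2, DESeq2 and GRCh38, and the strand setting and annotation release are not given in the sources used here. Reads shared by genes with the same exons depend on that setting. Symbols were taken from GENCODE release 29 for 56898 of 57500 genes.

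Counts were filtered (filterByExpr), TMM-scaled and fitted with edgeR 4.0.16 (glmQLFit and glmQLFTest, R 4.3.3) with the 3 clones against the 1 parental library and no covariate. Adjusted p-values are Benjamini-Hochberg over 22511 genes. The spread came from the clones alone (2 residual degrees of freedom), which are separate clones of 1 line, and an exact permutation of 1 library against 3 cannot go below p = 0.25. DESeq2 1.42.0 was an alternative, beside other scalings, filters and dispersion estimates and leaving out each clone. For single clones, ratios carry exact Clopper-Pearson 95% intervals, and a pseudocount of 1 CPM was used only for profile distances. All totals were 90467395 counts or more, so counting error was small, though for SPRED1, SPRED2 and SPRY2 some pairs of clones differed by no more than it. Against the parental library the same held for DUSP1 and DUSP4 in the library labelled clone 5 and for SPRY2 in clone 1. The 12 gene lists, the members being 1 of them, were chosen with earlier results of these data known. The text names all members, list genes that met the criterion with at most 4 others per list, NOS2, the 3 genes nearest to DUSP6, and cell type markers as counts and ranges. DGKG and AC024909.2 were named afterwards because they overlap members.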

Additional observations from a re-analysis of the deposited data

How the results depend on the processing

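No paired analysis was possible because the 3 clones share the 1 parental library. Of 110 values of single members under the alternatives, 104 kept their direction and side of the criterion, 3 of SPRY4 no longer met it, 3 of SPRY1 newly met it and 0 reversed. The count of all genes at an adjusted p under 0.05 was 1 in edgeR, 6 with no filter, 5 with the bias-adjusted method, 1095 with DESeq2 and 0 to 0 with a clone left out. Genes higher by the criterion numbered 955, and 1591 with DESeq2 and 641 to 1791 with a clone left out, the latter without clone 1, and genes lower numbered 825 to 1608 with a clone left out. Members at an adjusted p under 0.05 numbered 0, and 2 with DESeq2. Members higher by the criterion numbered 0, and 1 (SPRY1) with no filter, with DESeq2 and without clone 1, for a range of 0 to 1 with a clone left out. The cause of these moves was not tested. Upper quartile scaling moved the median log2 fold change of all tested genes from 0.10 to 0.20. With no filter on low counts it was 0.31, over a larger set of genes. Depth was not limiting for the members, but the single parental library was.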
